A study of Saccharomyces cerevisiae with 7 samples.

Results

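The branch points described here are those that were joined to the annotated 5' splice site of a yeast intron but lay 3 to 50 nt away from its annotated branch point. They were found by position alone: a pair was taken when its 5' splice site was exactly that of 1 of the 280 annotated introns, on the same chromosome and strand, and its branch point fell in that range upstream (towards the 5' splice site) or downstream. This gave 2381 of the 174421 pairs of 5' splice site and branch position in the table (1.37%), in 253 of the 280 introns, with 160485 reads. The reads came from lariat sequencing of 5 strains of Saccharomyces cerevisiae with wild-type PRP8 (PRP8-WT) or with prp8-V1860N, prp8-V1860D, prp8-N1869D or prp8-V1870N, changes in the RNaseH domain of Prp8. Every strain, PRP8-WT included, was mat a with his3, leu2, ura3 and lys2, had its chromosomal PRP8 replaced by LYS2, carried the PRP8 allele on the plasmid pRS313, and had dbr1::Kan, so it lacked the debranching enzyme; cells were grown at 30C in rich media. Each strain gave 1 library, and prp8-N1869D also gave a second biological sample, whose 2 technical libraries were summed and counted as 1 sample. Only prp8-N1869D thus has a replicate, against a single PRP8-WT library, and no difference of another mutant from PRP8-WT has a replicate check.

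In splicing, the 2' hydroxyl of the branch point adenosine attacks the 5' splice site, which leaves the intron as a lariat. In budding yeast the branch point is chosen by pairing of U2 snRNA with a conserved sequence, TACTAAC, in which the last A is the nucleophile. Prp8 forms the cavity that holds the catalytic core, and its RNaseH domain changes shape between the steps of splicing. Without the debranching enzyme lariats persist, and a read that crosses the 2'-5' join names both the 5' splice site and the branch point of one intron molecule.

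The sequences below show where the most used alternative branch points lay. They were read from the R64 reference on the strand of the intron, 5' to 3', and run from the first base of the upstream branch sequence to the last base of the downstream one. Capitals mark the annotated branch point and the alternative one. In RCF3 the alternative is the upstream capital, 15 nt before the annotated base, and in the others it is the downstream capital.
RCF3, chrII:726936-726957, minus strand: cgctaAcacaagtctaattaAc
PTC7, chrVIII:251210-251232, plus strand: tgctaAtcgactcagagactaAc
REC114, chrXIII:537523-537533, plus strand: tactaActaAc
EFM5 intron 1, chrVII:497952-497962, minus strand: tactaActaAc
MCR1, chrXI:166469-166497, plus strand: tactaAcgttttgaagcagccaaactaAc
CPT1, chrXIV:380700-380729, minus strand: tactaActattgtaacattaaattactaAt
URA2, chrX:172441-172459, minus strand: tactaAcattaatattaAc
RPS26A, chrVII:148649-148659, minus strand: tactaActaAt
In RCF3 and PTC7 neither base lies in an exact TACTAAC, whereas in the other introns shown the annotated base does. In REC114, EFM5 intron 1 and RPS26A the pair of branch sequences overlap, so that the last bases of the annotated one begin the next. URA2 and EFM5 intron 1 were added after their values were seen.

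Reads fell off steeply at the edges of the window counted as annotated. At the inner edge of the range, 920959 reads lay 2 nt upstream of the annotated branch point, which the annotated count includes, and 9598 reads lay 3 nt upstream. Downstream, 14969 reads lay at 2 nt and 4530 at 3 nt. At the outer edge, 29 reads lay 50 nt upstream and 58 reads 51 nt upstream, and 98 reads lay 50 nt downstream against 9 at 51 nt. Between these edges the highest numbers lay at 15 and 16 nt on either side, with 31698 reads at 15 nt upstream and 18955 at 16 nt downstream. Without RCF3 and PTC7, the introns with the most reads, 1077 and 65 of these remained, against 9597 at 3 nt upstream. Upstream pairs numbered 1845 with 97587 reads, and downstream pairs 536 with 62898 reads. Of the 2381 pairs, 857 (36.0%) had a single read, 337 had at least 20 reads and 357 were seen in all 6 samples. At the depth of the shallowest sample, 993122 annotated reads, 781 pairs would be seen in PRP8-WT, 799 for prp8-V1860N, 769 for prp8-V1860D, 896 and 846 for the first and second prp8-N1869D samples and 847 for prp8-V1870N. The gap of the prp8-N1869D samples to PRP8-WT was thus larger than the gap between them, with no test.

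**Figure D1:**
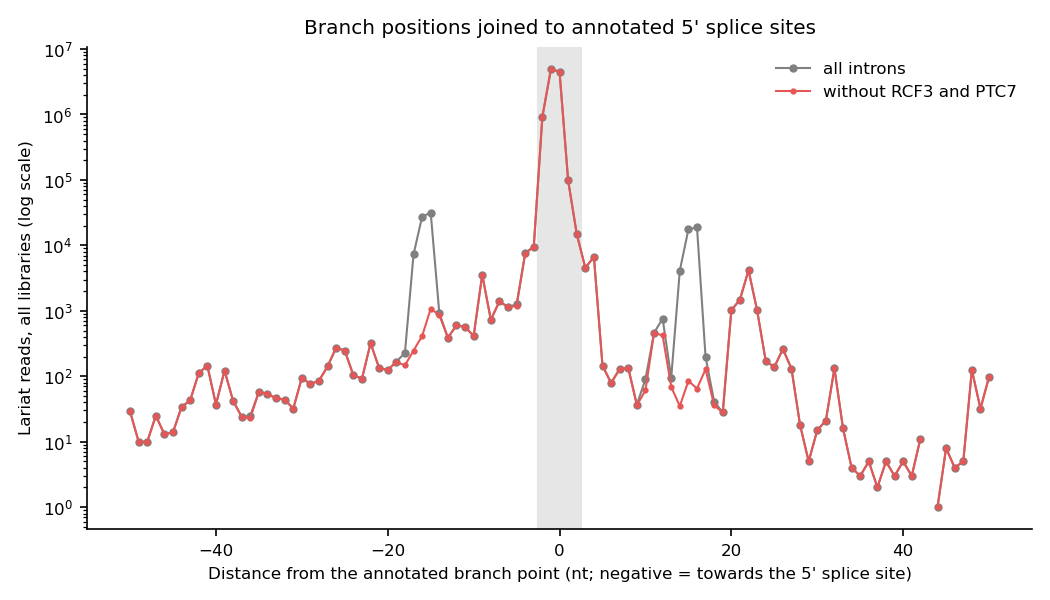
Lariat reads summed over all libraries (log axis) at each distance in nt from the annotated branch point, for reads joined to an annotated 5' splice site, over all introns (grey) and without RCF3 and PTC7 (red). The shaded band is the window counted as annotated, and 1077 of the 31698 reads 15 nt upstream and 65 of the 18955 reads 16 nt downstream remain without RCF3 and PTC7.

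RCF3, which encodes a factor of the respiratory chain supercomplexes, and PTC7, which encodes a mitochondrial protein phosphatase of type 2C, held most of the reads. RCF3 had 40.5% of all alternative branch reads and PTC7 25.5%. In RCF3, alternative reads numbered 13739 for PRP8-WT, 10114 for prp8-V1860N, 9673 for prp8-V1860D, 7877 and 12499 for the first and second prp8-N1869D samples and 11078 for prp8-V1870N, and annotated reads numbered 199, 122, 69, 111, 162 and 180 in the same order. The alternative share was therefore between 98.4% and 99.3% in every sample, and few of the lariat reads of this intron were placed at the listed branch point. The listed branch points of RCF3 and PTC7 may be misplaced, which was not tested, and their reads are alternative only relative to the deposited annotation. In PTC7 the share was 97.1% for PRP8-WT, 97.8% for prp8-V1860N, 98.3% for prp8-V1860D, 97.2% and 98.4% for the first and second prp8-N1869D samples and 98.0% for prp8-V1870N. The spread between the prp8-N1869D samples covered those of the other mutants, and PRP8-WT lay just below it. In RCF3 the alternative sequence, CGCTAAC, has 5 of the 7 bases of TACTAAC and the annotated one, AATTAAC, also has 5. In PTC7 the alternative, GACTAAC, has 6 and the annotated TGCTAAT has 5.

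EFM5 intron 1, in the gene of a methyltransferase of translation elongation factor 1A, was used in the same way. Its site 4 nt downstream had 87 reads in PRP8-WT, 104 for prp8-V1860N, 93 for prp8-V1860D, 87 and 97 for the first and second prp8-N1869D samples and 118 for prp8-V1870N, against 23 annotated reads over all samples. REC114, a gene needed for meiotic recombination, has the same overlapping sequence, but there the annotated base had the larger number of reads. The alternative share of REC114 was 29.4% for PRP8-WT, 28.9% for prp8-V1860N, 26.5% for prp8-V1860D, 29.3% and 26.7% for the first and second prp8-N1869D samples and 27.9% for prp8-V1870N. All mutants lay at or below PRP8-WT, within 3 percentage points, and the prp8-N1869D samples spanned most of that range. The same 11 letters thus went with an alternative share, as counted, above 94% in EFM5 intron 1 and below 30% in REC114. In REC114, 659 reads lay 2 nt before the alternative base, inside the window counted as annotated. If they belong to the alternative, which was not tested, its share is understated. The distance from the 5' splice site to the annotated branch point is 42 nt in EFM5 intron 1 and 79 nt in REC114.

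MCR1, which encodes a mitochondrial NADH-cytochrome b5 reductase, was split about evenly between its annotated branch point and AACTAAC at 22 nt downstream. Its alternative share was 53.3% (exact 95% interval 51.3% to 55.3%) for PRP8-WT, 54.0% for prp8-V1860N, 64.8% (62.5% to 67.1%) for prp8-V1860D, 50.2% and 49.95% for the first and second prp8-N1869D samples and 48.7% for prp8-V1870N. prp8-V1860D stood above all other samples, by more than counting error, and the prp8-N1869D samples nearly coincided. Intervals here and below cover counting error only, since reads amplified by PCR without molecular identifiers are not independent molecules.

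CPT1, the gene of a cholinephosphotransferase of phospholipid synthesis, used TACTAAT at 23 nt downstream, which lies 11 nt before the annotated 3' splice site. Its alternative share was 13.7% (12.6% to 14.7%) for PRP8-WT, 10.4% for prp8-V1860N, 7.51% for prp8-V1860D, 8.42% and 7.75% for the first and second prp8-N1869D samples and 9.78% for prp8-V1870N. Every mutant sample lay below PRP8-WT and the intervals did not overlap with it. Per 1000000 lariat reads, the annotated branch point of CPT1 had 1022 reads in PRP8-WT and 3211 and 3911 in the prp8-N1869D samples, while the site at 23 nt with its neighbouring positions had 160 reads against 289 and 322. Both forms were more abundant in prp8-N1869D, and the annotated one by the larger factor, 3.14 and 3.83 against 1.81 and 2.02. In edgeR's quasi-likelihood test against annotated reads, the position at 23 nt had a log2 fold change of -1.23 in prp8-N1869D, with a Benjamini-Hochberg adjusted p of 0.0996 over all pairs tested. By the same edgeR test it was called, with adjusted p of 0.0318, when PRP8-WT and the prp8-N1869D samples were fitted alone, and with 0.00728 without the first technical library of the second sample. Without the offset for annotated reads its log2 fold change was 0.40, so the sign of the difference depends on that scale.

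Other introns had lower shares. RPS26A, in the gene of a small-subunit ribosomal protein, had 3.10% of its reads at alternative positions in PRP8-WT, 2.77% for prp8-V1860N, 3.24% for prp8-V1860D, 3.05% and 3.19% for the first and second prp8-N1869D samples and 3.02% for prp8-V1870N, most at AACTAAT 4 nt downstream. The samples could not be told apart beyond counting error except in part for prp8-V1860N. URA2, whose product starts pyrimidine synthesis, had between 4.93% and 6.53% at alternative positions in the 6 samples, most at TATTAAC 12 nt downstream, with overlapping intervals. ARP2, the gene of an actin-related protein that nucleates filaments, named after its values were seen, had 1.24 reads per 100 annotated reads at TATTAAT 6 nt upstream in PRP8-WT. It had 1.16 for prp8-V1860N, 1.07 for prp8-V1860D, 0.738 and 0.857 for the first and second prp8-N1869D samples and 1.14 for prp8-V1870N.

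MRX20, in a gene of a mitochondrial protein, and DYN2 intron 2, in the gene of the dynein light chain, had few reads. MRX20 had 148 annotated reads in all. Its position 32 nt downstream had 26 reads in PRP8-WT, 34 for prp8-V1860N and 13 for prp8-V1860D. It had 12 and 19 for the first and second prp8-N1869D samples and 18 for prp8-V1870N. That position lies 8 nt beyond the annotated 3' splice site, so it is not inside the annotated intron. Across all introns with an annotated 3' splice site, 57 of 2077 pairs lay beyond it, with 350 reads. In DYN2 intron 2, TATTTAC at 4 nt upstream had 70 reads against 166 annotated reads.

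**Figure D2:**
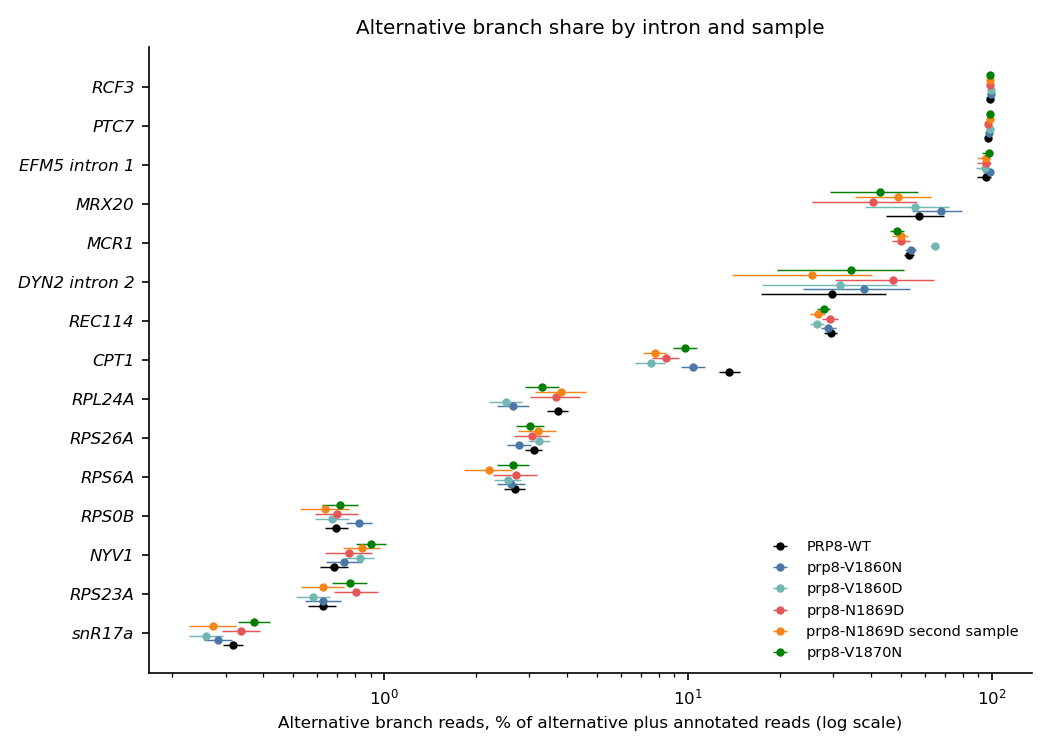
Alternative branch reads as a percentage of alternative plus annotated reads (log axis) in the introns with the most reads or the highest rate. Points are samples and bars exact binomial 95% intervals. RCF3, PTC7 and EFM5 intron 1 lie above 94% in every sample, and the PRP8-WT point of CPT1 lies above those of all mutants.

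Most introns were far from these levels. Over the 280 introns the median was 0.266 alternative reads per 100 annotated reads, with 52 introns above 1 and 9 above 10. Introns of ribosomal protein genes had a member in 103 of 104 cases, with a median rate of 0.222 per 100 and 9 introns above 1. The other 176 introns had a member in 150 cases, with a median of 0.297 and 43 above 1. The 20 introns of genes with 2 introns had a median of 0.450.

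Reads of a well-used site were spread over neighbouring positions, as at the annotated branch point. Over all annotated reads, 42.8% were placed on the annotated base, 47.4% on the base 1 nt upstream and 8.79% on the base 2 nt upstream. At the RCF3 alternative the shares were 47.3%, 41.7% and 10.8%, and at the PTC7 alternative 46.7%, 43.0% and 10.1%. Other sites were spread differently, with 52.5%, 27.2% and 19.6% at MCR1, 39.5%, 56.3% and 3.03% at CPT1, 60.6%, 34.8% and 0.873% at ARP2 and 90.4%, 8.84% and 0.532% at the site of RPL24A 4 nt upstream. One branch point thus appeared as several pairs, and pairs at neighbouring positions of one intron are not independent. The reads at 3 and 4 nt upstream lie next to this spread, and whether they are an end of it was not tested. The rate at 3 nt upstream had a median of 0.0455 per 100 annotated reads over 227 introns with at least 1000 annotated reads, and its highest value was 6.76, in NOG2, the gene of a GTPase of ribosome assembly. The listed base of NOG2 is the C after the last A of TACTAAC, so that this position lies only 2 nt before that A, and the value is not comparable with the others.

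Counting by sequence, 287 pairs with 81.3% of the reads belonged to a branch sequence with A at the branch position and at least 5 of 7 bases of TACTAAC, here called the motif class. RCF3 and PTC7 held most reads of this class. In PRP8-WT it had 31953 of 40421 alternative reads with these introns and 6612 of 14885 without them. Of the 26719 positions in the range, on the intron's strand and with those in the annotated window left out, 8.91% had a read. Among positions with A and 5 matching bases, 31.5% of 333 had a read, and among those with 6, 20 of 36 (55.6%). Among positions with A and 1 matching base the share was 10.1%, and among positions with another base it was 7.04%. The 1 position with all 7 bases had no read. Distance from the annotated branch point was not held constant in these shares. At 4 nt upstream, where an annotated TACTAAC itself supplies the A and the C after it, 182 pairs had a read. The branch base was A for 81.4% of alternative reads and for 66.2% without RCF3 and PTC7. Among branch points of the same 5' splice sites more than 50 nt from the annotated one, it was A for 55.2% of 23991 reads.

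At 4 nt upstream of the annotated base, the A of TACTAAC's own second position, the level differed with the bases before it. The sequences below show the 4 introns with the highest rates there among those with at least 1000 annotated reads. All 4 have CTTA ending at that A and a C after it (CTTAC). DYN2 intron 2, with TATTTAC and 70 reads at that A, fell below this minimum and had a higher rate. RPS30B is also shown, the intron with the most annotated reads among those with ATTAC. Capitals mark the A 4 nt upstream and the annotated A.
ERD2, chrII:142780-142794, minus strand: aatcttActaAcaga
RPL24A, chrVII:437982-437996, minus strand: agacttActaAcatt
GIM4, chrV:148245-148259, plus strand: tatcttActaAcaat
CMC2, chrII:110445-110459, minus strand: cgacttActaAcatt
RPS30B, chrXV:678416-678430, minus strand: ctcattActaAcatt
Among introns with at least 1000 annotated reads, the 14 with CTTAC had a median of 0.572 reads at that A per 100 annotated reads (0.0380 to 3.50). The 77 with TTTAC had a median of 0.0166, the 25 with ATTAC 0.00632 and the 15 with GTTAC 0.0130. No intron with ATTAC exceeded 0.0356, below the lowest with CTTAC. RPL24A, which encodes a large-subunit ribosomal protein, had 3.80 reads per 100 at and beside this A in PRP8-WT, 2.69 for prp8-V1860N, 2.56 for prp8-V1860D, 3.77 and 3.90 for the first and second prp8-N1869D samples and 3.40 for prp8-V1870N. Both V1860 mutants lay below the other samples. GIM4, the gene of a prefoldin subunit, had 2.02 for PRP8-WT, 2.19 for prp8-V1860N, 1.69 for prp8-V1860D, 1.66 and 2.14 for the first and second prp8-N1869D samples and 2.11 for prp8-V1870N, a span that the prp8-N1869D samples nearly covered. ERD2, the gene of the receptor that returns proteins to the endoplasmic reticulum, CMC2 and GIM4 were named after their values were seen.

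A further 217 pairs with 4.09% of the reads had no branch sequence but were followed by at least 2 bases equal to the first bases of their own 5' splice site, here called the 5' splice site match class. The sequences below give, for 5 such pairs, the bases from 5 nt before the branch position to the end of TACTAAC, and then the first 12 bases of the intron. The branch position is the lower-case base before the capitals, and capitals mark the bases shared with the 5' splice site.
RPS6A, 9 nt upstream, chrXVI:378032-378047, minus strand: gcaataGTATactaac
RPS6A 5' splice site, chrXVI:378378-378389, minus strand: GTATgatttatg
UBC9, 9 nt upstream, chrIV:337582-337597, plus strand: ccagcgGTAtactaac
UBC9 5' splice site, chrIV:337525-337536, plus strand: GTAagtagtagt
RPS4A, 15 nt upstream, chrX:702880-702901, minus strand: ttacgaGTAatgatttactaac
RPS4A 5' splice site, chrX:703043-703054, minus strand: GTAtgtttgact
RPL20B, 9 nt upstream, chrXV:900804-900819, minus strand: atgcaaGTttactaac
RPL20B 5' splice site, chrXV:901182-901193, minus strand: GTatgtaataga
RPS16B, 10 nt upstream, chrIV:307374-307390, minus strand: atttctGTtttactaac
RPS16B 5' splice site, chrIV:307754-307765, minus strand: GTatgttaaata
For such a pair the same read sequence can also be written with both ends moved along by up to the number of shared bases, so the join is not fixed to 1 position by the read. Of positions with no shared base 8.41% had a read, of those with 2 shared bases 15.2%, with 3 shared bases 19.8% and with 4 or more 28.7%. Of the 217 pairs 200 were upstream, and the 19 at 9 nt upstream held 3279 of the 6559 reads. The class lay in 145 introns, and 68.2% of its reads were in ribosomal protein introns. UBC9 and RPS4A were named after their values were seen.

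**Figure D3:**
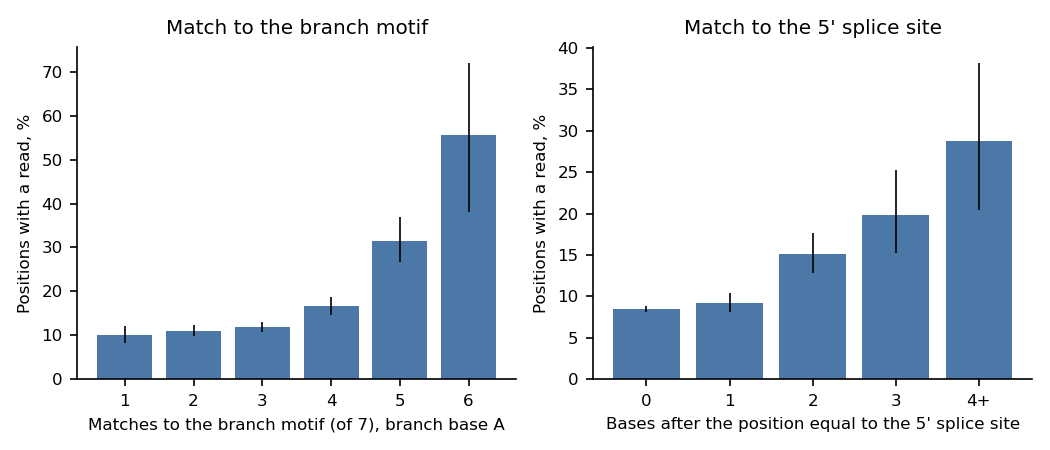
Percentage of positions 3 to 50 nt from the annotated branch point with at least 1 read in any library, by matches to TACTAAC for positions with A (left) and by bases after the position that equal the 5' splice site (right). Bars are shares with exact binomial 95% intervals. The share rises from 10.1% at 1 match to 55.6% at 6, and from 8.41% at no shared base to 28.7% at 4 or more. Distance from the annotated branch point was not held constant.

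The study asked whether branching at aberrant places differs between the strains. Pooled over introns, alternative reads per 100 annotated reads were 1.33 for PRP8-WT, 1.37 for prp8-V1860N, 1.39 for prp8-V1860D, 1.74 and 2.21 for the first and second prp8-N1869D samples and 1.68 for prp8-V1870N. Both prp8-N1869D samples lay above PRP8-WT, by 1.31-fold and 1.66-fold, and they differed from each other by about as much. RCF3 and PTC7 held most of the alternative reads in the pooled rate, and without them it was 0.489 for PRP8-WT, 0.493 for prp8-V1860N, 0.501 for prp8-V1860D, 0.570 and 0.572 for the first and second prp8-N1869D samples and 0.575 for prp8-V1870N. The prp8-N1869D samples and prp8-V1870N still lay above PRP8-WT, by 1.17-fold, 1.17-fold and 1.18-fold. The lariats of RCF3, counting both branch points, were 4.52 per 1000 annotated and alternative reads in PRP8-WT, 5.18 for prp8-V1860N, 5.22 for prp8-V1860D, 7.91 and 11.2 for the first and second prp8-N1869D samples and 7.14 for prp8-V1870N. The pooled rate depends on the mix of introns among the lariats as well as on the alternative share of each intron. The cause of the pooled difference was not tested. The number of reads expected if each intron kept its PRP8-WT share was therefore computed, and the observed reads were 0.992 times that number in prp8-V1860N, 0.984 for prp8-V1860D, 1.003 and 0.993 for the first and second prp8-N1869D samples and 1.01 for prp8-V1870N. RCF3 and PTC7 hold 66.0% of the reads and have alternative shares above 97% in every sample, so their part of this ratio can hardly leave 1. Without them it was 0.971, 0.943, 1.01, 0.961 and 1.03 in the same order, and without the 5 introns with the most alternative reads 0.971, 0.907, 1.02, 0.973 and 1.06. The first and second prp8-N1869D samples then lay on either side of PRP8-WT, and prp8-V1860D lay furthest below it. This measure was added after seeing the data.

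Single introns were compared by the ratio of their rate to that in PRP8-WT, for introns with at least 20 alternative reads over both samples and with a pseudocount of 0.5 reads. In prp8-V1860N 5 of 139 introns were at least 2-fold higher (3.6%) and 1 was 2-fold lower (0.719%). In prp8-V1860D 4 of 140 were higher (2.86%) and 8 lower (5.71%). In prp8-N1869D 12 of 130 were higher (9.23%) and 4 lower (3.08%), and in its second sample 20 of 132 were higher (15.2%) and 8 lower (6.06%). In prp8-V1870N 12 of 141 were higher (8.51%) and 1 lower (0.709%). By pair, 17 of 167 alternative branch pairs were 2-fold higher in prp8-N1869D (10.2%), against 19% of all 699 pairs that share an end with an annotated intron, and 17 of 173 in its second sample (9.83%), against 18.1% of 701. In prp8-V1870N 16 of 177 pairs were higher (9.04%) against 15.1% of 754, in prp8-V1860N 9 of 195 (4.62%) against 5.97% of 771, and in prp8-V1860D 8 of 189 (4.23%) against 8.61% of 755. The share of higher pairs was below that background in every mutant sample, and nearest to it in prp8-V1860N. The background includes the alternative branch pairs, and all these comparisons share the single PRP8-WT library. Of the same alternative branch pairs, those 2-fold lower numbered 10 in prp8-N1869D (5.99%, against 7.73% of all pairs), 15 in its second sample (8.67%, against 8.27%), 13 in prp8-V1870N (7.34%, against 5.44%), 9 in prp8-V1860N (4.62%, against 4.8%) and 16 in prp8-V1860D (8.47%, against 9.01%), shares near the background.

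The single introns below were named because they had the highest or lowest ratios to PRP8-WT in a mutant sample. All ratios of an intron also share its single PRP8-WT count. A shared direction across mutants is thus partly set by that choice and that count. Among single introns, RPL7A intron 2, in a gene of a large-subunit ribosomal protein, was higher in all mutants, with log2 ratios of its alternative rate to PRP8-WT of 1.03 for prp8-V1860N, 1.54 for prp8-V1860D, 2.0004 and 2.49 for the first and second prp8-N1869D samples and 2.35 for prp8-V1870N. It rested on 7 alternative reads in PRP8-WT, and for the second prp8-N1869D sample it was 3.09 without its first technical library and 1.37 without the other. RPL7A intron 1 was lower in all, at -0.85, -1.43, -0.35, -1.50 and -1.08 in the same order, from 17 reads in PRP8-WT. RPL34B was higher at 0.58, 1.05, 1.69, 2.43 and 1.63, and RPL20B at 0.79, 0.85, 1.80, 1.74 and 1.20, both in genes of large-subunit ribosomal proteins. COX4, a subunit gene of cytochrome c oxidase, was at -0.05, 0.35, 1.36, 3.10 and 1.27, from 24, 11, 13, 8, 16 and 12 alternative reads in PRP8-WT and the mutants. RPS24A, a small-subunit ribosomal protein gene, was lower in all mutants, at -0.98, -1.54, -0.67, -1.18 and -0.76. By edgeR in prp8-N1869D, RPS24A at 26 nt downstream had a log2 fold change of -0.56 with annotated reads as offset and 0.96 without. RPL34B at 11 nt upstream had 1.77 and 0.35, and RPL7A intron 2 at 15 nt upstream 2.45 and 2.36. TUB3, an alpha-tubulin gene, was at -1.995 and 0.56 in the prp8-N1869D samples, and RPL13B at -1.67 and 0.83, so their sign differed between samples of 1 strain. SUS1 intron 2, in a gene of the SAGA complex and mRNA export, was at -2.33 for prp8-V1860D, from 5 reads, and between -0.52 and 0.10 in the other mutants.

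The sequence classes, which were set up after seeing the data, differed in how they compared with PRP8-WT when the mix of introns was held. The motif class was at 0.990 times the expected reads in prp8-V1860N, 0.994 for prp8-V1860D, 0.974 and 0.976 for the first and second prp8-N1869D samples and 0.986 for prp8-V1870N, and without RCF3 and PTC7 at 0.936, 0.941, 0.878, 0.845 and 0.927. The 5' splice site match class was at 1.09 for prp8-V1860N, 1.05 for prp8-V1860D, 1.44 and 1.74 for the first and second prp8-N1869D samples and 1.33 for prp8-V1870N. Of its 50 site groups with at least 20 reads, 31 were above PRP8-WT in both prp8-N1869D samples and 6 below in both, against 16 and 19 of 53 in the motif class, 21 and 26 of 85 at 3 nt upstream and 54 and 27 of 123 among the remaining groups. A group could reach 20 reads through the prp8-N1869D samples, and both were compared with the same single PRP8-WT count. Site groups are also not replicates of a strain. These differences in balance were not tested. The pairs at 3 nt upstream were at 0.914, 0.892, 1.04, 0.847 and 1.13, and the prp8-N1869D samples lay on either side of PRP8-WT. The remaining pairs were at 1.03, 0.936, 1.12, 1.07 and 1.07.

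**Figure D4:**
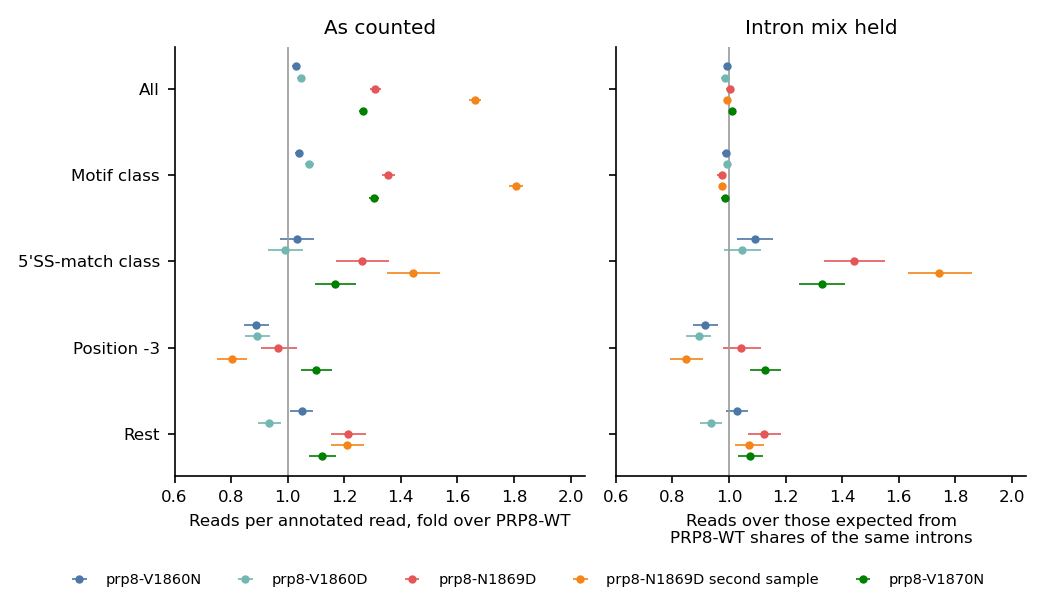
Alternative branch reads of each mutant sample against PRP8-WT, as counted per annotated read (left) and over the reads expected from the PRP8-WT share of each intron (right), for all pairs and for each sequence class. Bars are 95% counting intervals, exact binomial on the left and exact Poisson on the right. All pairs lie between 0.984 and 1.01 on the right, where RCF3 and PTC7 hold most of the reads, and the 5' splice site match class lies at 1.44 and 1.74 in the prp8-N1869D samples.

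Part of that difference came with fewer annotated reads in the same introns. Per 1000000 lariat reads, the introns with a member of the 5' splice site match class had 0.884 and 0.853 times the annotated reads of PRP8-WT in the prp8-N1869D samples, and the class itself had 1.19 and 1.35 times its reads. In prp8-V1870N the values were 0.886 and 1.08. For RPL20B at 9 nt upstream, reads per 100 annotated reads were 0.297 for PRP8-WT, 0.435 for prp8-V1860N, 0.490 for prp8-V1860D, 1.04 and 0.882 for the first and second prp8-N1869D samples and 0.718 for prp8-V1870N. Per 1000000 lariat reads the same site had 15.9, 16.6, 24.4, 20.4, 16.1 and 24.9 reads in that order, while annotated RPL20B reads in the prp8-N1869D samples were 0.366 and 0.341 times those in PRP8-WT. The ratio of RPL20B was thus higher in prp8-N1869D with little difference in the number of such reads.

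UBC9, the gene of the SUMO-conjugating enzyme, went the other way in its lariat level. Per 100 annotated reads, its site 9 nt upstream had 1.09 reads for PRP8-WT, 1.47 for prp8-V1860N, 1.65 for prp8-V1860D, 1.95 and 2.13 for the first and second prp8-N1869D samples and 1.77 for prp8-V1870N. Every mutant lay above PRP8-WT. Annotated UBC9 reads per 1000000 lariat reads were also higher in prp8-N1869D, 2.02 and 2.60 times those in PRP8-WT, and the site 3.60 and 5.09 times. RPS4A at 15 nt upstream had 2.06 per 100 for PRP8-WT, 2.43 for prp8-V1860N, 2.21 for prp8-V1860D, 3.04 and 4.09 for the first and second prp8-N1869D samples and 3.85 for prp8-V1870N. RPS6A at 9 nt upstream, the site of the class with the most reads, had 2.72, 2.65, 2.57, 2.70, 2.26 and 2.71 per 100 in the same order, with no sample above PRP8-WT.

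**Figure D5:**
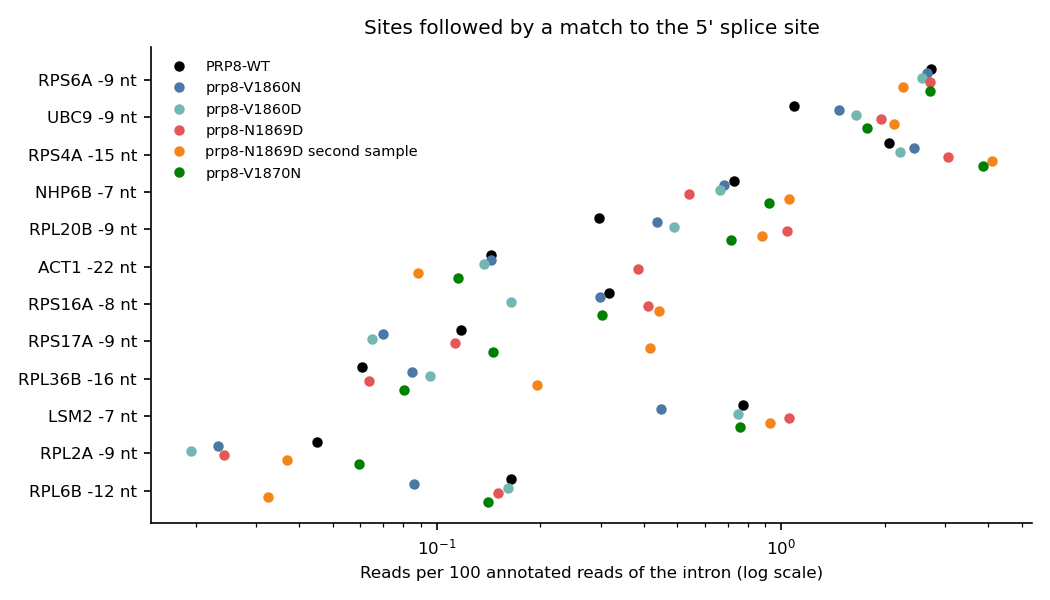
Reads per 100 annotated reads of the intron (log axis) for the 12 sites of the 5' splice site match class with the most reads, 1 point per sample. UBC9, RPS4A and RPL20B have every mutant above PRP8-WT, and RPS6A has none above it.

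The test with replicates compared prp8-N1869D (n = 2) with PRP8-WT (n = 1) by edgeR's quasi-likelihood test, with annotated reads of the intron as offset, where PRP8-WT was assumed to vary like prp8-N1869D. It covered 943 pairs that share an end with an annotated intron, of which 21 were higher (2.23%) and 4 lower (0.424%) at an adjusted p of 0.05. Of the 245 alternative branch pairs that passed the filter on low counts, out of 2381, none was called. By edgeR 24 of them had an unadjusted p under 0.05, against 145 of all 943 pairs, and DESeq2 also called none, with 0 at an unadjusted p under 0.05. Their median log2 fold change was 0.11, against 0.29 over all 943 pairs. The lowest adjusted p was that of RPS16B at 10 nt upstream, 0.0662 with a log2 fold change of 2.48, from 10 reads in PRP8-WT, 6 for prp8-V1860N, 7 for prp8-V1860D, 9 and 11 for the first and second prp8-N1869D samples and 11 for prp8-V1870N. RPL20B at 9 nt upstream followed with 0.0765 and a log2 fold change of 1.69, which was 0.02 when annotated reads were not used as offset. In the same edgeR test RPL20B was called with adjusted p of 0.0179 when PRP8-WT and the prp8-N1869D samples were fitted alone, and with 0.000466 without the first technical library. The other pair called under these settings was CPT1 at 23 nt downstream. RCF3 at 15 nt upstream had a log2 fold change of -0.04, PTC7 at 16 nt downstream 0.42 and MCR1 at 22 nt downstream -0.22, each with an adjusted p above 0.69.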

How the data were processed

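Lariat reads of 5 strains, in 7 libraries, were analysed as the authors deposited them. The deposited values are raw counts, and per the file headers each is the number of filtered lariat reads crossing a given join, listed by position and again summed by intron. For the summed counts, joins up to 2 nt from the listed branch point were included per the file headers, and they equalled the sum of such pairs in 280 of 280 introns. Trimmomatic, Bowtie2 and build R64 are named in the submitters' processing notes, and which versions were used is not given in the sources used here. Protocols in the labels give depletion of ribosomal RNA from total RNA with Ribo-Zero, digestion of linear RNA by RNase R and TruSeq-based library preparation. Separate counts and rates of aberrant 5' splice sites were not used.

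Depth ranged from 652680 to 3517283 lariat reads per library, and from 1222720 per sample, so PRP8-WT has the smallest counting error. In the R64 reference from RefSeq, GT started 279 of 280 introns and A was the branch base of 279. The 2 technical libraries were summed. Nothing states that the prp8-N1869D samples were cultured apart beyond being separate biological samples, so p-values measure the spread between these samples. Rates are alternative over annotated reads. Expected reads are the sum over introns of the lariat reads of a sample times the PRP8-WT share. Site groups join the positions of 1 branch point. edgeR used all 6 samples, with the spread from prp8-N1869D alone. It was tested on simulated data for this comparison, with 912 pairs and a dispersion set at 0.02 rather than estimated from these data. There it recovered 88.9% of 99 pairs made 4-fold higher and 57.9% of 76 made 4-fold lower, with 4 false calls. Recovery at the spread of the real data was not tested, and RPS16B at 10 nt upstream, with a log2 fold change of 2.48, was not called.

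The members and lists were chosen with earlier results of these data known. Named introns are the 12 with the most reads, the 8 with the highest rate and, per mutant, the 3 highest and 3 lowest ratios, with at least 20 alternative reads, and named sites the 15 with the most reads. The sequence classes, the expected reads and the settings without RCF3 and PTC7 were chosen after seeing the data. Calculations used Python 3.11.15, numpy 2.4.6, pandas 2.3.3, scipy 1.17.1, matplotlib 3.10.9, R 4.3.3, edgeR 4.0.16 and DESeq2 1.42.0.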

Additional observations from a re-analysis of the deposited data

How the results depend on the processing

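Values are given for prp8-V1860N, then prp8-V1860D, then the first and the second prp8-N1869D sample, and last prp8-V1870N. The pooled rate relative to PRP8-WT was 1.04, 1.06, 1.36, 1.81 and 1.29 at 6 to 50 nt, 1.10, 1.09, 1.37, 1.42 and 1.27 at 21 to 50 nt, 1.07, 1.06, 1.47, 1.90 and 1.38 for upstream and 0.972, 1.03, 1.10, 1.34 and 1.11 for downstream sites. It was 1.01, 1.02, 1.23, 1.56 and 1.17 per lariat read, 1.03, 1.03, 1.12, 1.36 and 1.14 without ribosomal protein introns, and 1.01, 1.02, 1.17, 1.17 and 1.18 without RCF3 and PTC7. Without the 5 introns with the most alternative reads it was 0.992, 0.922, 1.12, 1.10 and 1.12. The direction thus reversed for prp8-V1860N with downstream sites, and for both V1860 mutants without those 5 introns. The cause was not tested. Read minimums, sites up to 20 nt, branch base A and a 5' splice site within 1 nt moved no rate beyond counting error or the spread between the prp8-N1869D samples.

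Over the expected reads, all sites came to 0.971, 0.943, 1.01, 0.961 and 1.03 without RCF3 and PTC7 and 0.971, 0.907, 1.02, 0.973 and 1.06 without the 5 introns with the most alternative reads. The motif class came to 0.936, 0.941, 0.878, 0.845 and 0.927 without RCF3 and PTC7. The 5' splice site match class came to 1.02, 1.03, 1.26, 1.55 and 1.25 with 3 shared bases, and 1.13, 1.05, 1.61, 2.13 and 1.38 without the 5 introns with the most reads of the class.

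Introns 2-fold higher numbered 11, 7, 21, 28 and 14 with at least 10 reads and 2, 2, 3, 6 and 5 with at least 50. Introns 2-fold lower numbered 3, 11, 6, 11 and 3 with at least 10 reads, 0, 3, 1, 3 and 0 with at least 50, and 1, 7, 2, 7 and 0 with a pseudocount of 1. Site numbers at equal depth stayed within 1.5-fold under both settings tried. Leaving out either technical library gave rates between 1.64 and 1.68 for the second prp8-N1869D sample, and 18 to 21 introns 2-fold higher and 7 to 13 lower. Without the first technical library edgeR called 43 of 936 pairs over all pairs and 2 of 243 alternative branch pairs. Without the other it called 17 of 948 and 0 of 246. All pairs called by edgeR numbered 25 of 943 tested, against 4 of 943 by library size with TMM and no offset. They numbered 44 of 613 with PRP8-WT and prp8-N1869D alone, and 0 of 943 by DESeq2 with 30 at an unadjusted p under 0.05. Alternative branch pairs called numbered 2 of 146 tested with PRP8-WT and prp8-N1869D alone, against those 44 of 613 over all pairs. The branch base was A in 45.2% of sites, 82.1% of reads at sites with at least 5 reads and 66.2% of reads without RCF3 and PTC7. Upstream reads were 60.8% of the total and 79.3% without those 5 introns.

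No paired analysis was possible because the strains share fewer than 2 replicate numbers. With 1 library for PRP8-WT and for 3 mutants, differences of low-count introns cannot be told apart from sample variation.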
